A study of Rattus norvegicus with 6 samples.

Results

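The let-7 family of microRNAs (miRNAs) was followed by paralog and by read end in AR42J cells, an established line from a rat pancreatic tumour that keeps acinar (enzyme-secreting) and neuroendocrine traits. Members were chosen by name, as all reads aligned to a precursor called let-7, with any letter and copy, or to mir-98. They came to 12 of the 383 precursors in the files, 9 paralogs, 4165 of 53526 distinct read sequences and 2119899 of 20610833 miRNA reads. Cells had been given 200 µM sodium taurocholate, a bile acid salt with which acute pancreatitis is modelled, for 30 min (3 libraries) or had been left untreated (3 libraries). Cells for all 6 libraries were grown in F12K medium with serum and antibiotics and carry no genetic change that the labels name. Whether the replicates are cultures of their own is not stated, and p-values therefore reflect the variation among these libraries alone, which can be technical. Reads on let-7 precursors numbered 352491, 301547 and 352685 in the taurocholate libraries and 323236, 472118 and 317822 in the untreated ones.

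let-7 miRNAs restrain growth and keep cells differentiated by silencing targets such as Ras, Myc and Hmga2 mRNAs. Each is cut by Drosha and then by Dicer from a hairpin whose 5p arm becomes the active strand, while the 3p arm is mostly discarded. Terminal uridylyltransferases can add a uridine to let-7 precursors, as shown in human cells, and this nucleotide then lies at the end of the 3p arm. Other enzymes add adenosines to, or trim, mature miRNAs at their 3′ ends.

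The paralogs share the seed, bases 2 to 8, with which a miRNA finds its targets. Their mature 5p sequences in RefSeq (build GRCr8, 5′ to 3′, seed in capitals) are shown because the letters outside the seed decide which reads can be told apart.
let-7a-5p: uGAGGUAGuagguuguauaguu
let-7b-5p: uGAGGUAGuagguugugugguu
let-7c-5p: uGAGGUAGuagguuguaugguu
let-7d-5p: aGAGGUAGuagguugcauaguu
let-7e-5p: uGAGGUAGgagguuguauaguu
let-7f-5p: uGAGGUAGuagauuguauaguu
let-7g-5p: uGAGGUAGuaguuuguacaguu
let-7i-5p: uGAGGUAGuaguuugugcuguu
miR-98-5p: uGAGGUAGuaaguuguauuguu
All 9 mature sequences were found in RefSeq, each has 22 nt, and no other of its 693 mature rat miRNAs has the seed GAGGUAG. let-7a differs from let-7c, from let-7e and from let-7f at 1 position each, and let-7b from let-7c at 1. let-7d and let-7i are the farthest apart, with 6 differences. Reads with 1 mismatch could therefore align to several paralogs. These kept a group of their own, with 1.24%, 1.46% and 1.55% of let-7 reads in taurocholate libraries and 1.53%, 1.39% and 1.53% in untreated ones, and were not added to any paralog.

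By RefSeq, let-7a-1, let-7f-1 and let-7d lie within 10 kb of each other on chromosome 17, let-7b and let-7c-2 on chromosome 7, and let-7f-2 and mir-98 on chromosome X. let-7a-2 on chromosome 8 neighbours mir-100, let-7c-1 on chromosome 11 neighbours mir-99a, and let-7e on chromosome 1 neighbours mir-99b and mir-125a. let-7g on chromosome 8 and let-7i on chromosome 7 have no miRNA gene within 10 kb.

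Among acinar markers miR-148a-3p held 283926 to 421622 reads per 1000000 miRNA reads (CPM), while miR-216a-5p, miR-216b-5p and miR-217-5p were at or below 1.10 CPM in every library. Of neuroendocrine markers, miR-7a-5p lay at 41186 to 59654 CPM and miR-375-3p at 2.51 to 77.5 CPM. The summed markers of blood and immune cells (1945 to 3849 CPM), stroma and endothelium (9983 to 14306 CPM), muscle (22.5 to 82.7 CPM), liver (6.88 to 26.7 CPM) and neurons (at most 2.39 CPM) overlapped between the groups. Totals of miRNA reads ranged from 2791878 to 3987307 per library. Taurocholate replicate 1 stood apart by an excess of reads whose last base is a mismatched G, described with the read ends. Some of the results it touches, but not all, are given also without it.

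On the 5p arm the order of the paralogs was the same in all 6 libraries, led by let-7i and closed by miR-98. All have the same mature length, so the CPM of different paralogs need no correction for length, but how evenly their sequences were captured was not tested. let-7i-5p had 44447, 35440 and 36916 CPM in taurocholate libraries and 43344, 44247 and 42477 CPM in untreated ones. let-7f-5p followed with 24921, 19780 and 23280 CPM in taurocholate libraries and 25303, 29134 and 27451 CPM in untreated ones. The 2 groups overlapped for let-7i, while for let-7f the highest taurocholate value was under the lowest untreated one. let-7g-5p had 15284, 9830 and 13409 CPM with taurocholate and 14300, 16083 and 16027 CPM without. let-7c-5p had 7321, 5634 and 8954 CPM with taurocholate and 8622, 11725 and 10629 CPM without. Both overlapped between the groups, with taurocholate replicate 2 the lowest library. Across all libraries let-7a-5p ranged from 3874 to 7788 CPM, let-7b-5p from 1644 to 3286, let-7d-5p from 957 to 1970, let-7e-5p from 936 to 1762 and miR-98-5p from 154 to 312. Neighbours in this order whose ranges did not overlap were let-7i and let-7f, let-7f and let-7g, let-7a and let-7b, and let-7e and miR-98. The ranges of let-7g and let-7c, let-7c and let-7a, let-7b and let-7d, and let-7d and let-7e overlapped, although the first of each pair was the higher in 6 of 6 libraries. The smallest step was that of let-7d over let-7e, a ratio of 1.02 to 1.44. In taurocholate replicate 2 let-7d had 3619 reads and let-7e 3537. There 178 reads shared by let-7a and let-7e and 162 shared by let-7a and let-7d were counted under neither, each number larger than that gap. let-7i alone gave 42.5%, 44.9% and 38.5% of the 5p reads of the family in taurocholate libraries and 41.6%, 37.7% and 37.7% in untreated ones.

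**Figure D1:**
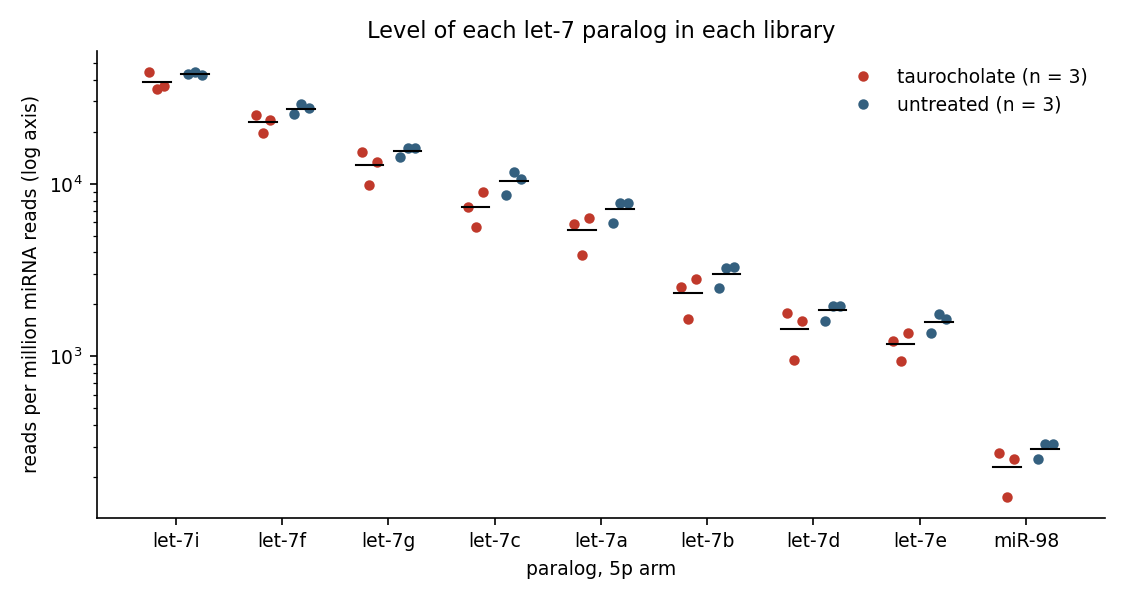
Level of each paralog's 5p arm in CPM (log axis), one point per library, with taurocholate (red) left of untreated (blue) and the group mean as a black line. The paralogs span a range from 154 CPM (miR-98) to 44447 CPM (let-7i), and the middle red point, taurocholate replicate 2, is the lowest of its paralog in all 9.

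After taurocholate the fitted change was negative for all 9 paralogs on the 5p arm, by 0.22 (let-7i) to 0.57 (let-7c) on the log2 scale, but none passed the threshold. The edgeR quasi-likelihood test was fitted on all 341 miRNA features with enough reads, scaled by TMM, which sets the bulk of features level between libraries, and 0.0% of the features had a Benjamini-Hochberg adjusted p under 0.05, while 57 had an unadjusted p under it. The log2 fold change was -0.57 (SE 0.13) for let-7c-5p, -0.50 (SE 0.11) for let-7e-5p, -0.49 (SE 0.11) for let-7a-5p and -0.45 (SE 0.13) for let-7b-5p. For let-7d-5p it was -0.44 (SE 0.13), for miR-98-5p -0.45 (SE 0.14), for let-7g-5p -0.35 (SE 0.08), for let-7f-5p -0.33 (SE 0.09) and for let-7i-5p -0.22 (SE 0.12). The edgeR adjusted p ran from 0.134 to 0.409. Of the 9, 8 had an unadjusted p under 0.05, all lower, where 10.9% of all features tested were lower at that p and 5.87% higher. On library totals in place of TMM 1 of the 9 had such a p, and over all features 11 were lower and 14 higher at it, against 37 lower and 20 higher with TMM. The median of the 9 was -0.45, beside -0.05 over all features, of which 56.0% had a negative value. The DESeq2 Wald test on the same features called 11, among them let-7a-5p, let-7c-5p, let-7e-5p and let-7g-5p, with adjusted p from 0.0296 to 0.0487. With the replicate number as a block edgeR called 0 features, and under every scaling run all 9 stayed negative. Single libraries moved 2 of the values by over 1.5 times: let-7i-5p was -0.13 without taurocholate replicate 3 and -0.09 without untreated replicate 1, and let-7d-5p was -0.29 without taurocholate replicate 2.

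The separation of the groups depended on the scale. In CPM over library totals only let-7f-5p had every taurocholate library below every untreated one, while 7.62% of all features were apart in that direction. In CPM scaled by TMM 8 of the 9 were, all but let-7i-5p, where 15.8% of all features were apart in that direction. The TMM factors were 1.16, 0.833 and 1.10 for the taurocholate libraries and 0.881, 1.02 and 1.05 for the untreated ones. let-7c-5p, for example, had 6318, 6762 and 8140 TMM-scaled CPM with taurocholate and 9791, 11540 and 10100 without. The family as a whole took 10.5%, 7.98% and 9.70% of miRNA reads in taurocholate libraries and 10.5%, 11.8% and 11.4% in untreated ones, which overlap. Its mean share was 9.41% ± 1.31 with taurocholate and 11.3% ± 0.666 untreated (SD, n = 3 each), a difference of -1.85 percentage points for which the exact permutation test (two-sided) gave p = 0.2, or 0.533 after adjustment over 16 family measures. Against TMM-scaled totals the shares were 9.10%, 9.57% and 8.82% with taurocholate and 12.0%, 11.7% and 10.8% untreated, with no overlap and an exact permutation p of 0.1, the smallest that 3 against 3 libraries allow. Without taurocholate replicate 2 the unscaled difference was -1.13 points.

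The 3p arms, mostly discarded strands, were measured at far lower levels. The read of let-7a-1 and let-7c-2, whose 3p arms are identical in sequence, had 399, 410 and 480 CPM with taurocholate and 563, 522 and 582 CPM untreated, and the groups did not overlap. Its log2 fold change was -0.42 (SE 0.17), with an edgeR adjusted p of 0.281. let-7d-3p had 273, 209 and 324 CPM with taurocholate and 264, 312 and 335 CPM untreated, a log2 fold change of -0.24 (SE 0.13). let-7b-3p, at 28.4, 29.9 and 28.3 CPM with taurocholate and 37.1, 34.4 and 35.8 CPM untreated, also had separate groups in CPM, though not with TMM scaling, where those of let-7d-3p were apart instead. Among the 10 features of the 3p arm that were tested, 7 had a negative value and 3 a positive one, and 1 was lower at an unadjusted p under 0.05, beside 56.0% negative and 10.9% lower at that p over all features. let-7e-3p had 0.07 (SE 0.15) and let-7i-3p 0.02 (SE 0.25), a value that ran from -0.11 to 0.24 leaving out 1 library. let-7a-3p and let-7c-3p had 0.12 (SE 0.34) and -0.05 (SE 0.20), let-7f-3p -0.29 (SE 0.15), let-7g-3p -0.47 (SE 0.34) and miR-98-3p -0.67 (SE 0.37), and those of let-7a, let-7g and miR-98 rested on 8 to 22 reads a library. Leaving out 1 library gave -0.67 to -0.29 for let-7g-3p and -0.87 to -0.31 for miR-98-3p.

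The balance of the arms differed widely among paralogs. let-7d gave 154, 219 and 202 reads of its 3p arm per 1000 reads of its 5p arm in taurocholate libraries and 164, 159 and 170 in untreated ones. For let-7g this was 0.196, 0.215 and 0.308 with taurocholate and 0.205, 0.250 and 0.335 untreated, and for let-7i 0.646, 0.373 and 0.782 with taurocholate and 0.383, 0.465 and 0.675 untreated. let-7a and let-7c together lay at 27.3 to 44.1, let-7b at 10.1 to 18.2, miR-98 at 10.5 to 24.5 and let-7f at 2.67 to 3.84 over all libraries. let-7e was the paralog whose groups did not overlap, with 16.9, 15.8 and 14.1 per 1000 in taurocholate libraries and 10.1, 10.2 and 11.1 in untreated ones, on 56 to 70 and 42 to 72 reads of the 3p arm. Random labels would set the groups apart, in either direction, in 10% of splits. The share of other miRNAs with separate arm ratios was not computed. Over the family the log2 ratio of 5p to 3p reads was 6.92, 6.71 and 6.60 with taurocholate and 6.70, 6.86 and 6.64 untreated, with an exact permutation p of 0.9. In every library it was far above that of all other miRNAs pooled, which lay between -0.39 and 0.33 (two-sided exact sign-flip permutation over 6 libraries, p = 0.0312, the smallest possible, and 0.0396 adjusted over 19 such comparisons). That pool holds miR-148a-3p, which alone had 283926 to 421622 CPM, so its ratio is not that of a typical miRNA.

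**Figure D2:**
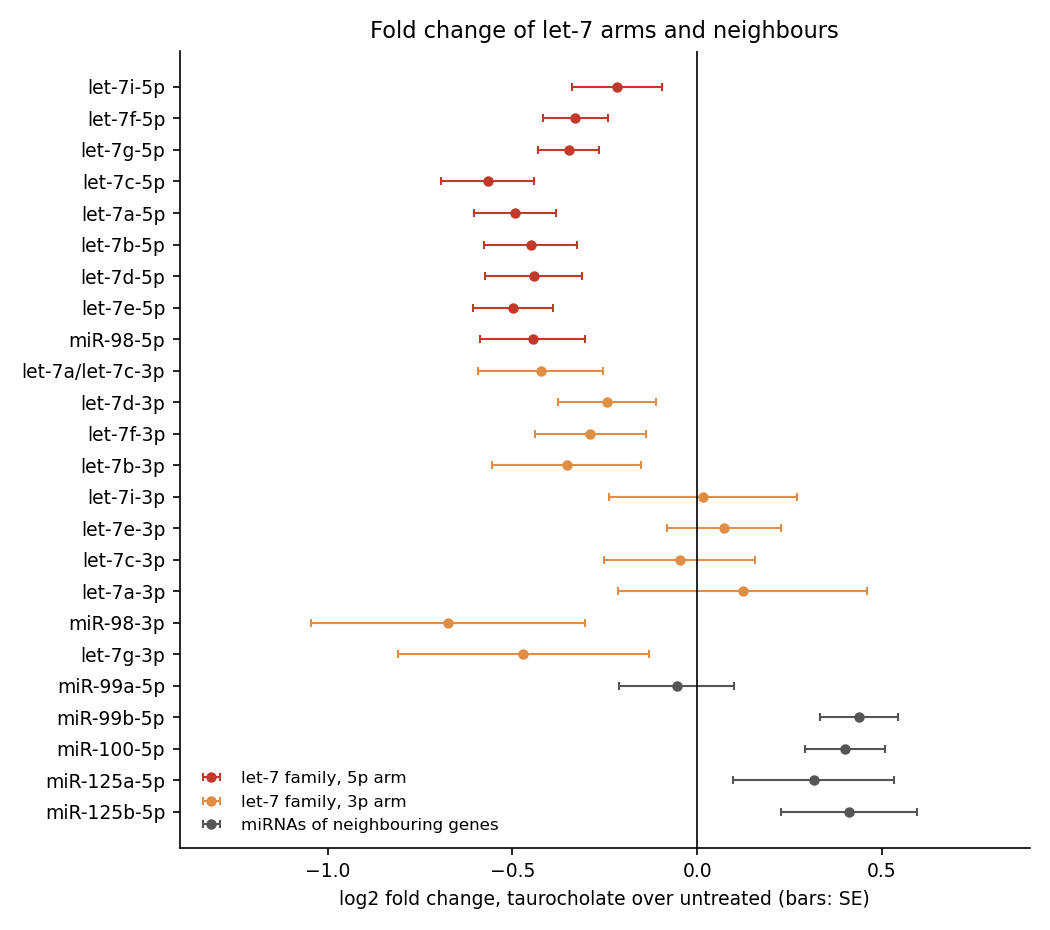
Log2 fold change (taurocholate over untreated, TMM-scaled edgeR fit, bars SE, n = 3 each) of the 5p arms in order of level (red), of the 3p arms (orange), and of 5 miRNAs from neighbouring or related clusters (grey). All 9 red points lie left of 0, from -0.22 to -0.57, and 4 of the 5 grey ones right of it.

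The miRNAs encoded beside let-7 genes had positive fold changes, or in miR-99a one near 0. miR-99b, miR-100 and miR-125a come from genes next to let-7e or let-7a-2, and miR-99a from one next to let-7c-1. miR-125b was included because in mammals its genes lie in the wider let-7 clusters. miR-99b-5p had 10069, 7387 and 8047 CPM with taurocholate and 5274, 6614 and 6174 CPM untreated. miR-100-5p had 14440, 12187 and 12952 CPM with taurocholate and 8835, 10349 and 9701 CPM untreated. In both, every taurocholate library was above every untreated one, as were 6.16% of all features tested. With TMM scaling miR-125b-5p was apart too, as were 10.3% of all features in that direction. Their log2 fold changes were 0.44 (SE 0.11) and 0.40 (SE 0.11), with an edgeR adjusted p of 0.134 for both, and DESeq2 called both. miR-125b-5p had 0.41 (SE 0.18), miR-125a-5p 0.32 (SE 0.22) and miR-99a-5p -0.06 (SE 0.16), the last with a sign that turned under 5 of the alternative settings. Without taurocholate replicate 1 the values of miR-125b-5p and miR-125a-5p were 0.22 and 0.19.

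Ratios of reads within a library do not depend on the scaling. The log2 ratio of let-7e-5p to miR-99b-5p was -3.03, -2.98 and -2.56 in taurocholate libraries and -1.96, -1.91 and -1.91 in untreated ones, a difference of -0.93. That of let-7e-5p to miR-125a-5p was 0.56, 1.23 and 0.97 with taurocholate and 1.95, 1.51 and 1.76 untreated, a difference of -0.82. That of let-7a-5p to miR-100-5p was -1.30, -1.65 and -1.03 with taurocholate and -0.57, -0.41 and -0.33 untreated, a difference of -0.89. In all 3 the taurocholate libraries lay below the untreated ones, as they did for the summed 5p reads of the family over the summed reads of the 5 neighbours (difference -0.59). Each had an exact permutation p of 0.1 and 0.2 after adjustment over 8 ratios. Of the denominators, miR-99b-5p and miR-100-5p were already apart on their own in CPM. How often ratios of other miRNA pairs are apart was not computed. let-7c-5p over miR-99a-5p differed by -0.50 and overlapped (p 0.2). Within the family, let-7e, let-7c and let-7a over let-7i differed by -0.28, -0.35 and -0.28, all with overlap and an exact p of 0.2.

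The miRNAs outside the family whose TMM-scaled level over the 6 libraries was most like that of the summed let-7 5p reads, out of 120 with a mean of at least 100 CPM, were miR-7a-5p (Pearson r 0.995), miR-22-3p (0.943), miR-423-5p (0.904), miR-145-3p (0.884) and miR-148b-3p (0.840). These values share libraries and scaling factors and are descriptions over 6 points. miR-7a-5p, the abundant neuroendocrine marker, had 54637, 41186 and 49472 CPM with taurocholate and 54913, 59654 and 58633 CPM untreated. Its groups did not overlap, lower with taurocholate, as in 7.62% of all features tested. It was picked for its likeness to let-7 over these same libraries, so a similar pattern follows from the choice. Its part in the let-7 result was not tested.

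At the 5′ end, which sets the seed, let-7 reads were uniform. Of 5p reads, 99.8% in each taurocholate library and 99.7%, 99.8% and 99.7% in the untreated ones began at the reference start, the most frequent first base of the paralog. The other miRNAs pooled ranged from 96.8% to 97.3% (sign-flip exact p = 0.0312, adjusted 0.0396). let-7d, the paralog that begins with A, had the lowest share, 98.7% to 98.8% over all libraries, with 0.908% to 1.13% of its reads beginning 1 nt upstream. let-7c had 0.357% to 0.466% of reads beginning 1 nt downstream, and let-7g 0.389% to 0.541% 1 nt upstream. Where a read begins elsewhere its seed shifts with it.

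At the 3′ end the paralogs differed more. Mean length was 21.9 nt in every library, 1.02 nt below that of other 5p reads, and 83.2% to 86.4% of let-7 5p reads ended at their reference end, against 54.6% to 60.8% for other 5p reads (both sign-flip exact p = 0.0312). let-7b was the most varied, with 61.6%, 67.8% and 65.0% at the reference end in taurocholate libraries and 70.0%, 67.5% and 68.0% in untreated ones, and let-7i and let-7c among the least, at 86.1% to 90.4% over all libraries. let-7b also had the most reads 1 nt longer, 15.8%, 15.9% and 15.7% with taurocholate and 14.3%, 15.3% and 14.4% untreated. let-7d had the most 1 nt shorter, 16.4% to 19.6%. The share at the reference end was apart, lower with taurocholate, in 4 of the 9 paralogs (let-7a, let-7c, let-7f and let-7g), where this held for 30.4% of 135 miRNA arms with at least 200 reads in every library. Reads 1 nt longer were apart, higher with taurocholate, in 5 of the 9 paralogs (let-7b, let-7c, let-7e, let-7f and let-7g), where this held for 20.7% of those arms. Of let-7e reads 7.53%, 6.05% and 6.16% with taurocholate and 3.72%, 5.04% and 4.33% untreated were 1 nt longer.

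Reads 2 nt shorter than the reference, of 20 nt, made up a small share that was higher with taurocholate in 8 of the 9 paralogs. The same held for 26.7% of those 135 arms, and the measure was chosen after the values had been seen. let-7b had 4.28%, 3.06% and 3.26% of such reads in taurocholate libraries and 1.75%, 2.11% and 1.94% in untreated ones. let-7f had 0.422%, 0.360% and 0.428% with taurocholate and 0.184%, 0.246% and 0.239% untreated. Only miR-98, with few reads, overlapped. Pooled reads of the other miRNAs overlapped too, at 3.33%, 2.36% and 2.84% with taurocholate and 2.33%, 2.68% and 2.66% untreated on the 5p arm. In the edgeR fit of 4825 read sequences, 569 of them let-7, 0.0% had an adjusted p under 0.05, and 886 of all and 88 of let-7 an unadjusted one. There 20-nt reads of let-7f and let-7i were among the 5 let-7 sequences of smallest p that were higher with taurocholate. They are given here, with no mismatch, as the letters as read.
let-7f, 20 nt: tgaggtagtagattgtatag
let-7i, 20 nt: tgaggtagtagtttgtgctg
The let-7f read had 86.7, 50.0 and 66.0 CPM with taurocholate and 31.6, 47.1 and 41.9 CPM untreated, a log2 fold change of 0.90 (SE 0.25). The let-7i read had 144, 78.0 and 101 CPM with taurocholate and 53.4, 73.2 and 73.1 CPM untreated, a log2 fold change of 0.85 (SE 0.25). In both the groups did not overlap, and the edgeR adjusted p was 0.224. Both reads were picked for a small p in this direction, so the separation of their groups adds no support. Without taurocholate replicate 1, their highest library, the log2 fold changes were 0.54 for let-7f and 0.45 for let-7i. Both reads end in G, the base that this library has in excess as a mismatch. Whether that excess bears on them was not tested.

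A large share of reads carried their only mismatch at the last base. An added nucleotide and an error in reading the last base cannot be told apart from the letters. On the 5p arm 40.5%, 22.2% and 23.7% of let-7 reads had one in taurocholate libraries and 23.2%, 23.5% and 22.7% in untreated ones. Taurocholate replicate 1 was far above the rest, and the difference was -0.19 points without it. Its excess was in mismatched G, 24.8%, 1.60% and 2.02% with taurocholate and 4.93%, 1.09% and 1.28% untreated, and it was seen also in other miRNAs, at 17.9% on the 5p arm and 26.7% on the 3p arm in that library. The forms are shown for let-7i, the most abundant paralog, with the mismatched base in capitals.
let-7i reference: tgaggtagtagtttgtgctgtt
let-7i, last A: tgaggtagtagtttgtgctgtA
let-7i, last C: tgaggtagtagtttgtgctgtC
let-7i, last G: tgaggtagtagtttgtgctgtG
The error-free read had 20354, 22845 and 22396 CPM with taurocholate and 26483, 27531 and 26173 CPM untreated. The read ending in C had 2738, 3493 and 3729 CPM with taurocholate and 4789, 6087 and 5217 CPM untreated. For these 2 every taurocholate library was the lower in CPM. With TMM scaling the log2 fold change was -0.12 (SE 0.19) for the error-free read and -0.52 (SE 0.20) for that ending in C. Without taurocholate replicate 1 these were -0.21 and -0.54. How often read sequences in general are apart in CPM was not computed. The read ending in A had 2610, 2442 and 2677 CPM with taurocholate and 2123, 2343 and 2377 CPM untreated, with every taurocholate library the higher. Its log2 fold change was 0.34 (SE 0.15), and 0.19 without taurocholate replicate 1. The read ending in G had 10810, 556 and 721 CPM with taurocholate and 2198, 477 and 552 CPM untreated, where the order of the groups rested on 1 library.

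**Figure D3:**
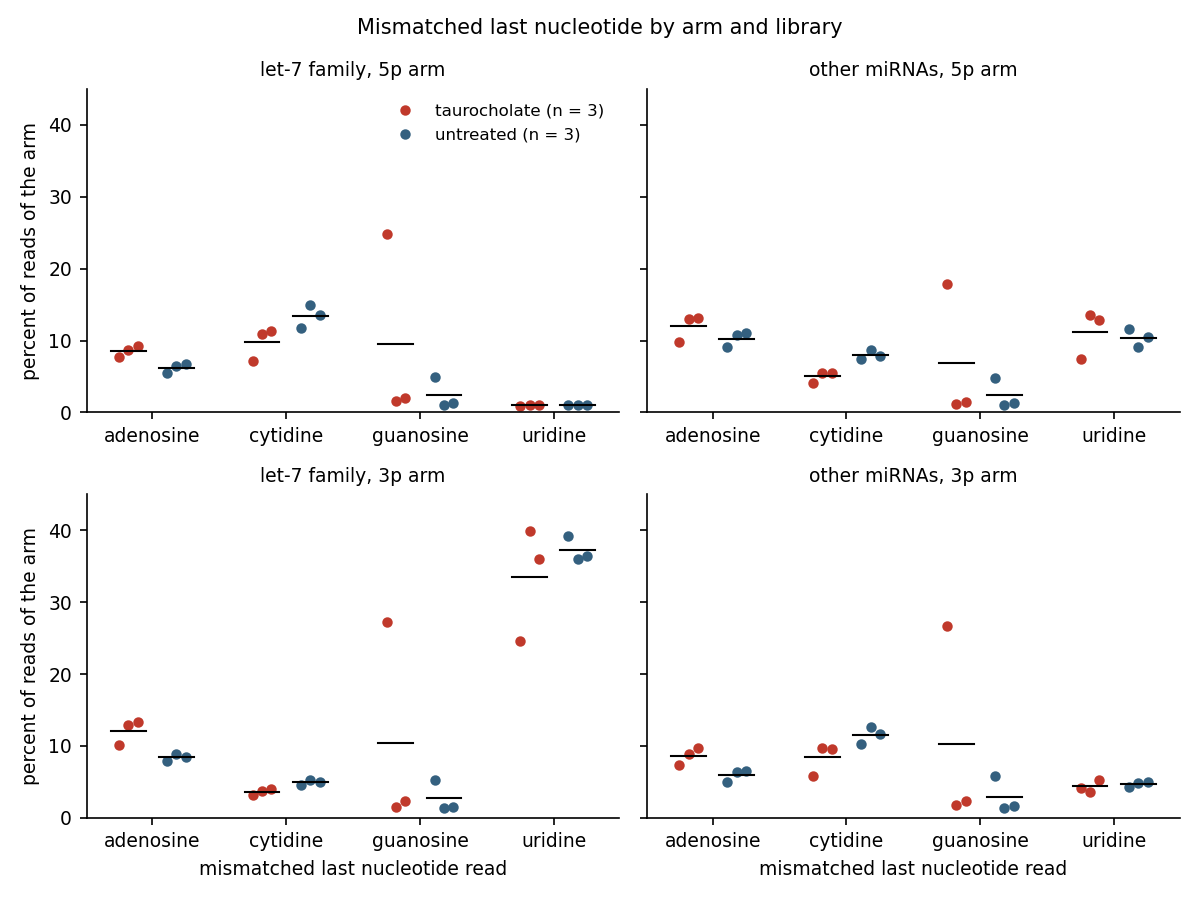
Percent of reads of an arm that end in a mismatched nucleotide, by nucleotide, for the let-7 family (left) and all other miRNAs (right), 5p arm above and 3p arm below. Points are libraries, taurocholate (red) left of untreated (blue), lines are means. On the let-7 3p arm uridine reaches 39.9%, and on its 5p arm, whose mature sequences end in UU, 1.10%. In each guanosine column 1 red point, taurocholate replicate 1, lies at 17.9% to 27.2%.

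A mismatched last A was more frequent with taurocholate in all 9 paralogs, with no overlap between the groups in any. The same held for 26.7% of the 135 arms, and, among reads without a mismatched last G, for 9 of 9 paralogs and 44.4% of the arms. let-7a had 6.76%, 7.53% and 7.70% in taurocholate libraries and 4.92%, 5.15% and 5.40% in untreated ones. let-7f had 6.50%, 6.76% and 7.40% with taurocholate and 4.07%, 4.61% and 4.97% untreated. let-7b stood highest, with 9.81%, 11.8% and 11.8% with taurocholate and 7.67%, 9.05% and 9.40% untreated. Over the family it was 8.55% ± 0.747 with taurocholate and 6.24% ± 0.649 untreated on the 5p arm, and 12.1% ± 1.79 with taurocholate and 8.45% ± 0.475 untreated on the 3p arm (SD, n = 3 each). Both had an exact permutation p of 0.1 and 0.4 after adjustment over 16 measures. The other miRNAs averaged 12.0% ± 1.90 with taurocholate and 10.3% ± 1.01 untreated on the 5p arm (SD, n = 3 each), with overlap, and had 7.31%, 8.88% and 9.72% with taurocholate and 4.97%, 6.35% and 6.48% untreated on the 3p arm, without. Among the 38 tested 5p sequences of the family that end in a mismatched A, 34 had a positive log2 fold change and 10 of these an unadjusted p under 0.05. Of all read sequences tested, 13.0% were higher at that p. Of all 292 on the 5p arm with such an A, 262 had a positive value and 76 were higher at that p. On library totals in place of TMM 33 of the 38 and 240 of the 292 were positive, 3 of the 38 at an unadjusted p under 0.05, while over all sequences the balance at that p turned, with 268 higher and 369 lower against 628 higher and 258 lower with TMM. The 3 of smallest p are shown.
let-7f, 18 nt, last A: tgaggtagtagattgtaA
let-7g, 18 nt, last A: tgaggtagtagtttgtaA
let-7f, 22 nt, last A: tgaggtagtagattgtatagtA
The 18-nt read of let-7f had 44.3, 39.4 and 49.2 CPM with taurocholate and 26.1, 18.1 and 25.1 CPM untreated, a log2 fold change of 1.09 (SE 0.25). That of let-7g had 15.0, 15.1 and 22.8 CPM with taurocholate and 7.82, 10.3 and 12.9 CPM untreated, a log2 fold change of 0.93 (SE 0.26). The 22-nt read had 1182, 957 and 1241 CPM with taurocholate and 797, 975 and 1002 CPM untreated, a log2 fold change of 0.44 (SE 0.14), and of 0.26 without taurocholate replicate 1. The groups of the first pair did not overlap and those of the third did, and the edgeR adjusted p was 0.224 to 0.228. As these reads were picked by p, the separation of groups adds no support.

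**Figure D4:**
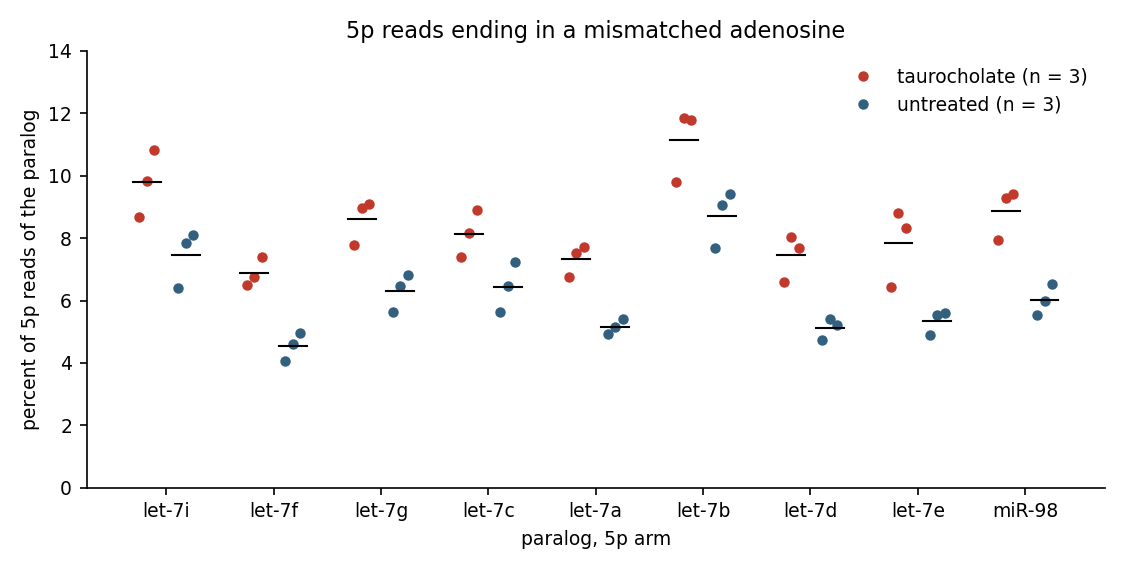
Percent of the 5p reads of each paralog that end in a mismatched adenosine, one point per library, taurocholate (red) left of untreated (blue), with means as lines. In each paralog the lowest red point lies above the highest blue one, as in let-7a with 6.76% and 5.40%.

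A mismatched last C went the other way. It was lower with taurocholate, with no overlap, in 7 of the 9 paralogs, as in 66.7% of the 135 arms. let-7c had 7.11%, 11.4% and 11.4% with taurocholate and 11.9%, 15.2% and 14.1% untreated. The family had 7.11%, 10.9% and 11.4% with taurocholate and 11.8%, 14.9% and 13.5% untreated on the 5p arm, a difference of -3.63 points, and of -2.29 without taurocholate replicate 1. Other miRNAs were lower too, with 4.05% to 5.55% with taurocholate and 7.41% to 8.65% untreated on that arm. All 34 tested 5p sequences of the family with such a C had a negative log2 fold change, with a median of -0.53, and 17 an unadjusted p under 0.05. Of all read sequences, 5.35% were lower at that p. All 202 on the 5p arm with a mismatched last C had a median of -0.46, with 179 of them negative and 60 lower at that p. Of the let-7 sequences of smallest p in that direction, those of let-7g and let-7d are shown.
let-7g, last C: tgaggtagtagtttgtacagtC
let-7d, last C: agaggtagtaggttgcatagtC
The let-7g read had 953, 925 and 1327 CPM with taurocholate and 1552, 2157 and 1950 CPM untreated, a log2 fold change of -0.67 (SE 0.17). The let-7d read had 89.1, 81.5 and 137 CPM with taurocholate and 150, 217 and 205 CPM untreated, a log2 fold change of -0.75 (SE 0.22). Neither group pair overlapped, and the edgeR adjusted p was 0.224. As both reads were picked by p, this separation adds no support. Error-free 5p sequences had a median of -0.24 over 73 tested.

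The 3p arm of let-7 was set apart by a mismatched last uridine (read as T). It ended 24.5%, 39.9% and 36.0% of 3p reads in taurocholate libraries and 39.2%, 36.0% and 36.4% in untreated ones. The 5p arm had 0.848% to 1.10%, and the pooled 3p arm of the other miRNAs, the abundant miR-148a-3p among them, 3.65% to 5.26%. Both differences had the same sign in 6 of 6 libraries (34.3 and 30.8 points, sign-flip exact p = 0.0312, adjusted 0.0396), and 5 libraries cannot reach p under 0.05, so leaving 1 out gives values only, 33.4 to 36.5 and 29.7 to 32.9 points. The low value is that of taurocholate replicate 1, which has the mismatched G. Between the groups the exact permutation p was 0.8. The mature 5p sequences all end in UU, so a T at position 21 or 22 cannot be a mismatch there. In every paralog 0.0% of 5p reads were 21-nt or 22-nt reads with a mismatched last T. The difference between the arms was thus largely set by the reference letters, and its p does not measure added uridine. The last letters of the other 3p arms were not taken into account. The most abundant 3p reads are shown because they differ at the base that decides whether such a uridine can be seen.
let-7a-1 and let-7c-2: ctatacaatctactgtctttcT
let-7b: ctatacaacctactgccttccT
let-7e: ctatacggcctcctagctttcT
let-7f-1: ctatacaatctattgccttccT
let-7f-2: ctatacagtctactgtctttcT
let-7d: ctatacgacctgctgcctttct
let-7i: ctgcgcaagctactgccttgct
In the first 5 the last base, in capitals, is a T where the hairpin has C, and in let-7d and let-7i the T is the hairpin's own. The read of let-7a-1 and let-7c-2 made up 35.8%, 52.7% and 49.7% of that feature's 3p reads with taurocholate and 50.6%, 51.2% and 50.9% untreated. Its error-free 22-nt form, ending in C, made up 8.37% ± 2.27 with taurocholate and 12.4% ± 1.34 untreated (SD, n = 3 each). Every taurocholate library was the lower, but taurocholate replicate 2 had 10.3% and untreated replicate 1 had 10.9%. The lowest share, 5.85%, was that of taurocholate replicate 1, where the form ending in a mismatched G took 24.9% of the feature's 3p reads. In the other libraries that form took 1.01% to 4.63%. How often such shares of read sequences are apart in general was not computed. By paralog, a mismatched last T ended 37.1% to 54.5% of the 3p reads of let-7a and let-7c, 28.4% to 62.3% of those of let-7b, 39.2% to 59.0% of those of let-7f and 28.6% to 50.0% of those of let-7e over all libraries. let-7d had 3.06% to 8.22%. An added uridine gives no mismatch at the places where these 2 hairpins have U, so the shares are not on the same footing.

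**Figure D5:**
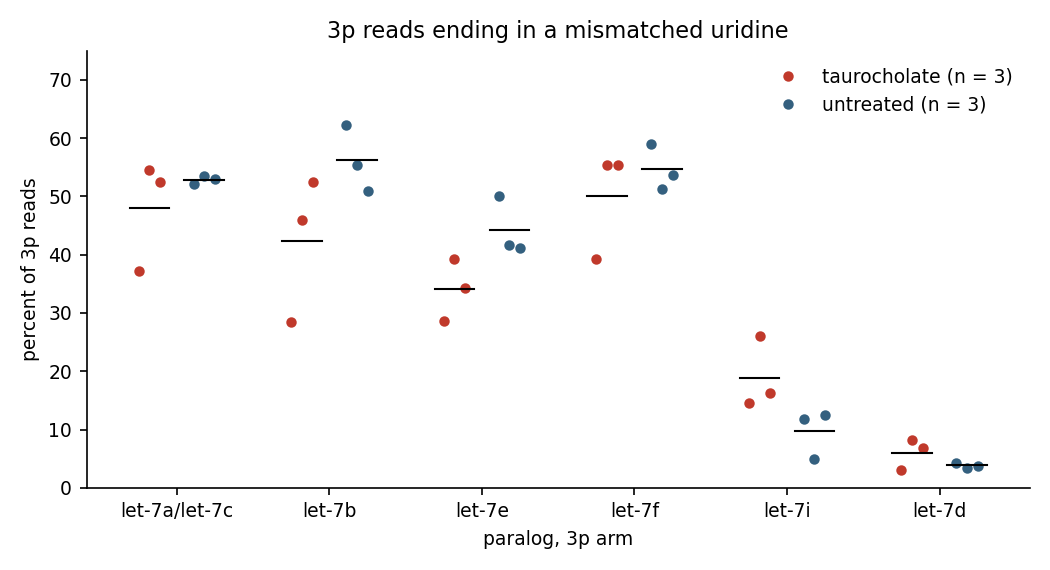
Percent of 3p reads that end in a mismatched uridine, by paralog, one point per library, taurocholate (red) left of untreated (blue), lines are means. let-7a with let-7c, let-7b, let-7e and let-7f lie between 28.4% and 62.3%, let-7d between 3.06% and 8.22%, and every let-7i point is below 28.4%.

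let-7e-3p was lower with taurocholate, with 28.6%, 39.3% and 34.3% against 50.0%, 41.7% and 41.2% untreated, and let-7i-3p higher, with 18.9% ± 6.18 with taurocholate and 9.71% ± 4.20 untreated (SD, n = 3 each). In both the groups did not overlap. Of the 135 arms with at least 200 reads in every library, 28.9% were apart and lower in mismatched last T, and 0.0% apart and higher. The values of let-7e-3p and let-7i-3p rest on 42 to 105 reads a library, under that limit. On the 5p arm a U added right after position 22 gives a mismatch only where the hairpin continues with another base, while let-7a, let-7c, let-7d, let-7g and let-7f-2 continue with U. In let-7i such reads of 23 nt made up 1.84%, 2.11% and 2.59% with taurocholate and 2.14%, 2.58% and 2.55% untreated, with overlap. In miR-98 they made up 0.437% to 1.46% over all libraries. let-7e also continues with another base, but none of the 23-nt reads kept under it had this form, and reads that fit let-7a as well stand in the group shared by paralogs. At 24 nt a mismatched last T ended 0.703% to 1.37% of let-7e reads and 0.0758% to 0.133% of let-7g reads over all libraries, among reads beginning at the reference start.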

How the data were processed

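Small RNA libraries were made from AR42J cells, 3 with taurocholate and 3 untreated, after, per the labels' protocols, deacylation, removal of cyclic phosphates, 5′ phosphorylation and demethylation of total RNA. Deposited tables give, as read counts per the file headers, how often a distinct sequence of 16 to 28 nt was read and where on a miRNA precursor it aligned, with at most 1 mismatch. Tools were FastQC, cutadapt and Novoalign 2.07.11, per the submitters' processing notes, and the build is not given in the sources used here. Tag length, alignment ends and mismatches were used as deposited.

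Each sequence was counted 1 time by its reads, and reads on several miRNAs formed combined features (657 in all). Arms were set by the precursor's middle. An end is an offset from the paralog's most frequent end. edgeR 4.0.16 (R 4.3.3) used TMM, filterByExpr and Benjamini-Hochberg adjustment, tested on simulated data. SEs were derived from the F statistic. DESeq2 1.42.0 was an alternative. CPM are over library totals unless called TMM-scaled. Measures were compared by exact permutation over libraries. Named are all paralogs and arms, neighbouring miRNAs, the 10 most abundant let-7 sequences and the 5 higher and 5 lower of smallest p among those averaging 10 CPM or more, of which those that carry a result are printed. Members and lists were chosen with earlier results of these data known.

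Same-numbered libraries deviated from their group means together (correlations over miRNAs of 0.285, 0.63 and 0.185), and the number was used as a block in 1 alternative, although untreated replicate 1 correlated more with taurocholate replicate 3 (0.414) than with its own number. No 2 libraries of the same group agreed within sampling noise, and pairs across groups were not compared.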

Additional observations from a re-analysis of the deposited data

How the results depend on the processing

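The 5p fold changes kept their sign under all alternatives run. DESeq2 called 11 miRNAs (edgeR 0, with 57 at an unadjusted p under 0.05), among them let-7a-5p (-0.44), let-7c-5p (-0.51), let-7e-5p (-0.44), let-7g-5p (-0.29), miR-99b-5p (0.49) and miR-100-5p (0.46). No call changed under the replicate block, which gave 0 at both levels. Leaving out 1 library called 0 miRNAs each time, and 0 to 1 read sequences (1 without untreated replicate 2). let-7i-3p was -0.0199 with shared reads split, -0.00284 with the replicate block and -0.11 to 0.24 leaving out 1 library. miR-99a-5p was 0.00877 with DESeq2, 0.0167 with no filter on low counts and -0.197 to 0.0581 leaving out 1 library.

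Of the family differences, that in reads starting at the reference turned to -0.00531 points with paralogs weighted equally, and that in mismatched last T on the 5p arm to 0.0239 points without reads with a mismatched last G. Leaving out 1 library gave -0.19 to 8.98 points for 5p last-base mismatches, -0.623 to 11.002 for mismatched last G on the 5p arm and -0.798 to 12.0 on the 3p arm, -0.112 to 0.0153 for mismatched last T on the 5p arm and -6.94 to 0.713 on the 3p arm, -0.129 to 0.0241 for reads on several paralogs, and -0.0797 to 0.0813 for the log2 arm ratio. In all 7 the sign turned without taurocholate replicate 1. Against other miRNAs without miR-148a and miR-21, let-7 had 1.43 points more mismatched last G on the 5p arm and 2.22 on the 3p arm (exact sign-flip p 0.0312 each), -0.240 points of last A and -0.774 of last C on the 3p arm (p 0.75 and 0.0625). With each other miRNA weighted equally the 5p last G difference was 1.64 points, and leaving out 1 library the 3p one ran from -0.16 to 0.0206. The cause was not tested. Depth limits the 3p arms of let-7a, let-7g and miR-98.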

Other observations

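Reads that align equally well to several paralogs, kept as combined features, had mostly negative fold changes, as the paralogs did. Of those on the 5p arm 58.6% to 64.2% in a library had an internal mismatch. They can be variants of the paralogs' own reads and are not independent of them. Of 31 such 5p features 23 had enough reads to be tested, and 20 of these had a negative log2 fold change and 9 an unadjusted p under 0.05, all lower, with a median of -0.46. Over all features tested 56.0% were negative and 10.9% lower at that p, with a median of -0.05. None had an adjusted p under 0.05 by edgeR. The most negative was that of reads shared by let-7a and miR-98, with 2.69, 2.64 and 2.75 CPM in taurocholate libraries and 4.89, 7.27 and 6.45 CPM in untreated ones, a log2 fold change of -1.24. It rested on 9, 10 and 10 reads with taurocholate and 15, 29 and 18 untreated.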
